A study of Mus musculus with 4 samples.

Results

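The genes described here are 9 genes of vitamin A (retinoid) metabolism and signalling in mouse: Stra8, Aldh1a1, Aldh1a2, Adh1, Rbp4, Cyp26b1, Rara, Rarg and Stra6. They were taken by symbol from the 55364 genes quantified in each library, and all 9 were found. The libraries hold total RNA of pachytene spermatocytes (meiotic germ cells whose homologous chromosomes are fully paired), enriched from testis by enzyme digestion and centrifugal elutriation. Of the 4 libraries 2 are wild type (WT) and 2 (KK) carry a knock-in on both copies of Ddx4, which encodes an RNA helicase of germ granules. The labels call the second genotype a homozygous DDX4 knock-in and give no further allele, agent, strain or age for either group, and both were digested and elutriated alike. No label ties a library to a mouse of its own, so p-values rest on the spread between these libraries, which may be technical. In such bulk samples fewer cells of a type and less RNA per cell cannot be told apart.

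Retinol travels in blood bound to RBP4, and cells can take it up through the receptor STRA6. Alcohol dehydrogenases such as ADH1, and other retinol dehydrogenases, oxidise it to retinal, retinal dehydrogenases of the ALDH1A family turn retinal into retinoic acid, and CYP26 enzymes such as CYP26B1 degrade it. Retinoic acid binds the nuclear receptors RARA, RARB and RARG, which pair with RXR partners on DNA. In the testis this signal drives the differentiation of spermatogonia and induces Stra8, the gatekeeper gene of meiotic entry, whose protein acts in preleptotene cells together with MEIOSIN. ALDH1A2 is the retinal dehydrogenase known from spermatocytes, while ALDH1A1 is known from Sertoli and Leydig cells.

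Expected counts summed to between 17970207 and 19438570 a library. Ddx4 itself stood at 264.96 and 272.92 TPM (transcripts per 1000000, a level per length) in WT and at 54.44 and 52.49 TPM in KK, with no overlap. Among pachytene markers, Piwil1, a pachytene PIWI protein gene, stood at 942 ± 2.53 CPM in WT and 629 ± 21.5 CPM in KK (counts per 1000000 reads on the edgeR scale, mean ± SD, n = 2 each). All 21 pachytene markers were tested, of which 3 rose and 14 fell in KK. Of 16571 genes tested between genotypes, 43.7% passed an adjusted p of 0.05 in edgeR's quasi-likelihood test: KK exceeded WT in 22.0% and was below it in 21.7%. The higher genes made up 50.4% of those calls, and 64.2% when libraries were scaled by their totals alone.

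All 9 genes had counts in every library and passed the expression filter. Stra8, Aldh1a1 and Adh1 rose in KK, Aldh1a2 fell, and Cyp26b1, Stra6, Rarg, Rara and Rbp4 did not pass. The 4 of 9 that passed are close to the 43.7% of all genes that did. The median log2 fold change of all 9 was 0.49, against 0.003 over all genes tested. The genotypes did not overlap in CPM for 6 of the 9, against 70.8% of all genes tested.

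The levels of the 9 genes spanned a wide range. Aldh1a2 was highest in every library and Aldh1a1 next in every library, both clear of the rest. Cyp26b1 was lowest in every library. Stra8, Rbp4 and Rara lay between these, and the place of Rbp4 in TPM changed with genotype. Rara ranked above Stra8 in WT replicate 1 and below it in WT replicate 2 and both KK libraries. Rbp4 ranked above Stra8 in both WT libraries, and Stra8 above Rbp4 in both KK libraries. In counts Stra8 was above Rbp4 in every library. The effective length that TPM divides by was, for Rbp4, 275 and 338 bases in WT and 674 and 508 bases in KK. By mean TPM over the 4 libraries, Rbp4 (3.57 TPM) and Rara (3.27 TPM) were neighbours whose ranges overlapped, as were Rarg (1.43 TPM) and Stra6 (1.08 TPM).

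**Figure D1:**
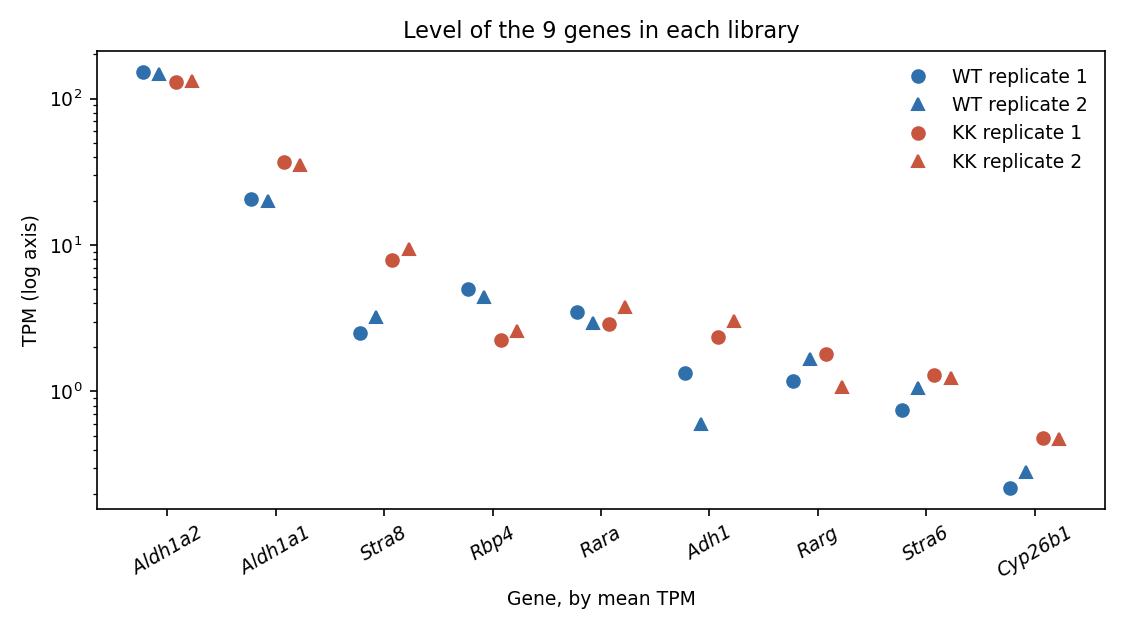
TPM of each of the 9 genes (log axis) in the 4 libraries, with WT in blue and KK in red and replicates 1 and 2 as circles and triangles. Aldh1a2 lies between 130.16 and 152.84 TPM, and Stra8 lies at 2.51 and 3.20 TPM in WT and at 7.91 and 9.46 TPM in KK.

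The synthesis of retinoic acid was represented mainly by Aldh1a2. Aldh1a2 (chromosome 9, 71215789 to 71296243, plus strand, GRCm38) has a single annotated isoform, at 152.84 and 146.75 TPM in WT and 130.16 and 131.05 TPM in KK. Both KK libraries lay below both WT libraries. Its normalised level went from 229 ± 6.56 to 199.7 ± 0.608 CPM (n = 2 each), a fall of 0.19 on the log2 scale (SE 0.04) with an edgeR adjusted p of 1.5e-04. The change was 1.14-fold. With libraries scaled by their totals alone, the log2 fold change of Aldh1a2 was -0.11 (edgeR adjusted p of 0.0212).

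Aldh1a1 (chromosome 19, 20492715 to 20643465, plus strand), the other retinal dehydrogenase of the set, went the opposite way. It stood at 20.73 and 20.09 TPM in WT and at 37.1 and 35.4 TPM in KK, with both KK libraries above both WT libraries. Its CPM rose from 26.5 ± 1.497 to 47.0 ± 1.39 (n = 2 each), a log2 fold change of 0.83 ± 0.09 (SE) with an edgeR adjusted p of 5.4e-09. The coding isoform Aldh1a1-201 held 78.4% and 83.3% of the gene's transcripts in WT and 78.5% and 75.2% in KK, so the main isoform was the same in every library. The near-copy Aldh1a7, whose product resembles ALDH1A1, shares 151 of the 2004 stretches of 50 bases in Aldh1a1-201, or 7.53%, and reads from those stretches are assigned with uncertainty. Aldh1a7 was low, at 0.75 and 1.21 TPM in WT and 1.92 and 2.18 TPM in KK, and also rose (2.08-fold, adjusted p of 0.0099 by edgeR).

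The make-up of the Aldh1a family differed between genotypes. Aldh1a2 held 87.5% and 87.1% of the summed TPM of Aldh1a1, Aldh1a2, Aldh1a3 and Aldh1a7 in WT, and 76.8% and 77.6% in KK. Aldh1a1 held 11.9% in both WT libraries, and 21.9% and 20.97% in KK. The sum itself was 174.57 and 168.43 TPM in WT and 169.38 and 168.79 TPM in KK, and the genotypes overlapped in it. Per Aldh1a1 transcript there were 7.37 and 7.30 Aldh1a2 transcripts in WT and 3.51 and 3.70 in KK. Aldh1a3 was too low to be tested, with 7 to 11 counts a library.

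**Figure D2:**
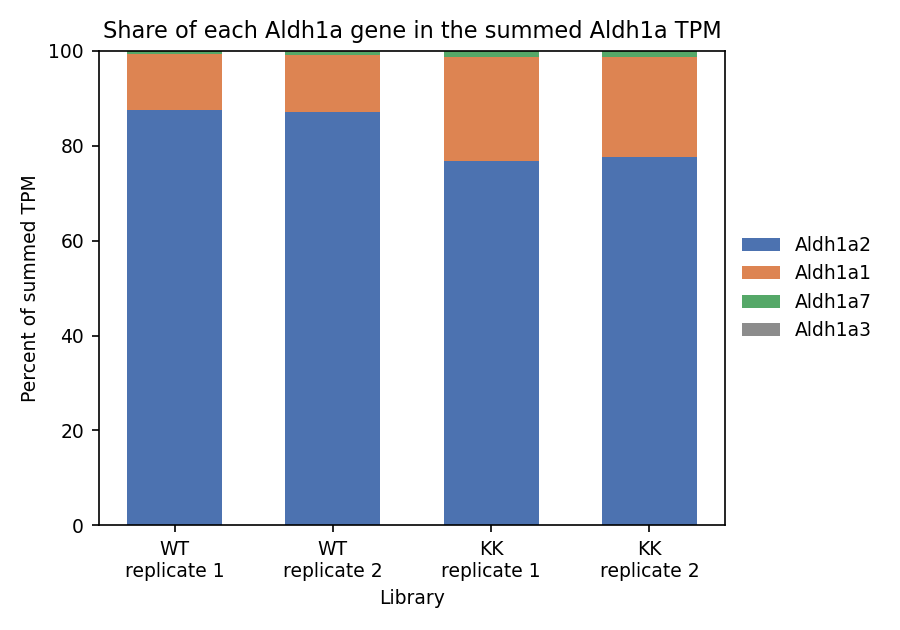
Stacked bars of the percent of the summed Aldh1a TPM held by Aldh1a2, Aldh1a1, Aldh1a7 and Aldh1a3 in each of the 4 libraries. Aldh1a2 takes 87.1% to 87.5% in the WT libraries and 76.8% to 77.6% in the KK libraries, and Aldh1a1 takes most of the remainder.

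The stretch in front of the Aldh1a1 start is shown because this gene had the smallest adjusted p of the 9. Bases in capitals mark a core hexamer of retinoic acid receptor sites. The hexamers searched, on both strands, were AGGTCA, the variant GGGTCA, the variant AGTTCA and the variant GGTTCA. The sequence, from RefSeq on GRCm38.p6, covers chr19:20601718-20601960 on the plus strand, up to 8 bases before the RefSeq start used by Aldh1a1-201.
Aldh1a1: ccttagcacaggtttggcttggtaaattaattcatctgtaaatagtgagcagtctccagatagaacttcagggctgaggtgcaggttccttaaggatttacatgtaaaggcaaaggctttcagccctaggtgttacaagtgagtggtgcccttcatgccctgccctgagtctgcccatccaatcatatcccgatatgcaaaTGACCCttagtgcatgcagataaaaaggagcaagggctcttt
It holds 1 hexamer, GGGTCA on the minus strand, whose first base lies at -49 from the start. Among 32851 promoters of 300 bases (250 before to 50 after a RefSeq start), 13.7% held GGGTCA and 43.71% held at least 1 of the 4 hexamers.

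Adh1, an alcohol dehydrogenase gene that can act on retinol, had few counts. Adh1 (chromosome 3, 138260991 to 138290698, plus strand) had 14 and 8 counts in WT and 39 and 51 in KK, or 1.34 and 0.60 TPM against 2.37 and 3.01 TPM. Both KK libraries lay above both WT libraries. The log2 fold change of Adh1 was 1.94 ± 0.42 (SE; 3.84-fold) with an edgeR adjusted p of 4.1e-04. The ratio of summed counts was 3.86, with an exact 95% interval of 2.40 to 6.46 that covers counting error only. The call was lost in limma on log2(TPM + 0.1), with an adjusted p of 0.0604, and on log2(TPM + 1) without an expression filter, with an adjusted p of 0.149. The counts fell on different isoforms: Adh1-202, annotated as a target of nonsense-mediated decay, was assigned 12.88 and 4.88 counts in WT and 10.72 and 0 in KK, and the coding Adh1-201 was assigned 0 and 3.12 in WT and 28.28 and 51 in KK. These estimates rest on so few reads that no isoform difference was tested. The antisense gene Gm16559, which shares 136 exonic bases with Adh1, had 1 count in all libraries together.

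The Adh1 stretch is shown for comparison with that of Aldh1a1, as both genes rose. It covers chr3:138277335-138277493 on the plus strand (RefSeq, GRCm38.p6) and ends 92 bases before the RefSeq start, next to the first exon of Adh1-201.
Adh1: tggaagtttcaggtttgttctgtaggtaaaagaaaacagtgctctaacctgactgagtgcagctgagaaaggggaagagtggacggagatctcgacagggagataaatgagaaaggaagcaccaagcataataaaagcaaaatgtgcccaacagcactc
None of the 4 hexamers is present in the 300-base Adh1 window.

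Stra8 (chromosome 6, 34920163 to 34939344, plus strand) had 35 and 51 counts in WT and 124 and 120 in KK. Per length this was 2.51 and 3.20 TPM in WT against 7.91 and 9.46 TPM in KK. Every KK library was above every WT library. Stra8 rose from 2.36 ± 0.525 to 6.35 ± 0.251 CPM (n = 2 each), a log2 fold change of 1.42 ± 0.22 (SE; 2.68-fold) with an edgeR adjusted p of 5.7e-06. The ratio of summed counts was 2.68, with an exact 95% counting interval of 2.09 to 3.46. The log2 fold change lay between 1.21 and 1.67 when each library was left out in turn.

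All 4 annotated Stra8 isoforms had counts. Stra8-203 held the largest share in every library, 70.4% and 69.3% of the gene's transcripts in WT and 61.6% and 70.1% in KK. The shares of the others moved between replicates of 1 genotype as much as between genotypes: Stra8-202 held 22.5% and 0% in WT and 27.1% and 4.31% in KK. None of the 1406 stretches of 50 bases in Stra8-203 occurs in a transcript of another gene, and no annotated gene overlaps Stra8.

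The Stra8 promoter is shown because its response to retinoic acid defines the gene. The 300-base window around the RefSeq start held AGGTCA at 2 places, both on the gene's own strand, with first bases at -194 and -38 from the start. All 250 bases before that start lie in an annotated exon of Stra8-201, so these are not exon-free stretches like those of Aldh1a1 and Adh1. Each is printed with its flanks, 30 bases in all, with the hexamer in capitals. The windows are chr6:34920742-34920771 and chr6:34920898-34920927 on the plus strand (RefSeq, GRCm38.p6).
Stra8 at -194: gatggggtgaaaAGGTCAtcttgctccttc
Stra8 at -38: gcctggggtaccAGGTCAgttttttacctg
AGGTCA occurred in 16.26% of the 32851 promoters. Of the 18 windows of the 9 genes, 7 held any of the 4 hexamers, and none held a direct repeat of them spaced by 1, 2 or 5 bases, arrangements present in 0.22%, 0.27% and 0.10% of all promoters. These are matches of letters, and no binding was measured.

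**Figure D3:**
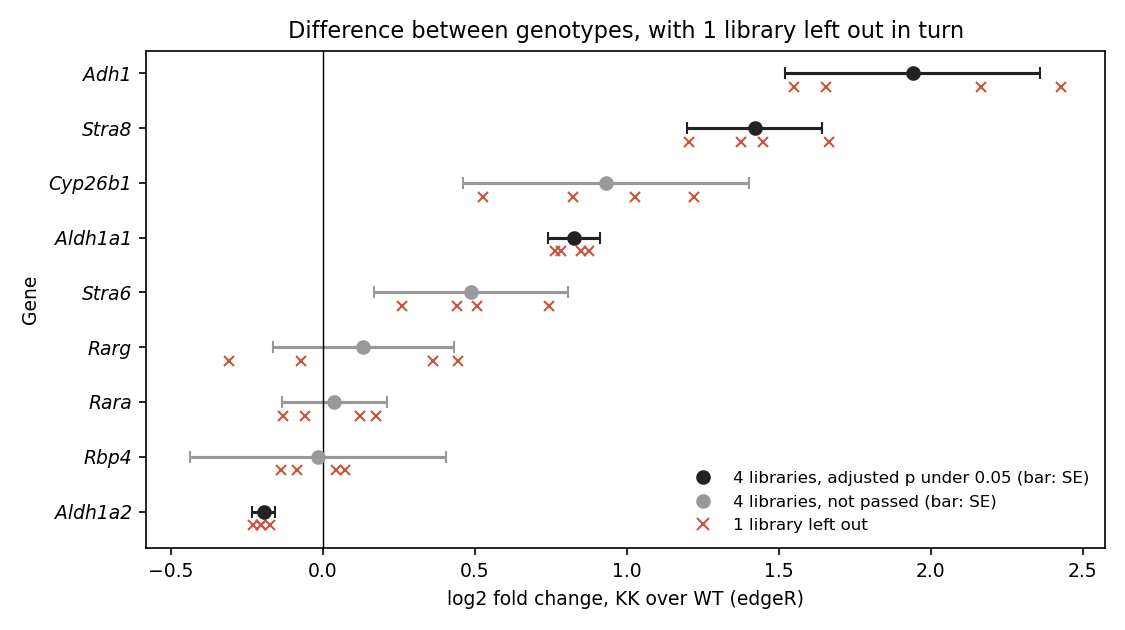
Log2 fold change of KK over WT for the 9 genes from edgeR with SE bars (black where the adjusted p was under 0.05, grey otherwise), with the value after leaving out each library as red crosses below. Adh1, Stra8 and Aldh1a1 stay above 0 and Aldh1a2 stays below 0 without any single library, while the crosses of Rarg, Rara and Rbp4 fall on both sides of 0.

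The receptor genes of the set were low and did not pass the test. Rara (chromosome 11, 98927818 to 98974942, plus strand), the main receptor of Sertoli cells and also present in germ cells, stood at 3.48 and 2.95 TPM in WT and 2.87 and 3.79 TPM in KK, and the genotypes overlapped. Its log2 fold change was 0.04 ± 0.17 (SE; edgeR adjusted p of 0.885), and the count ratio of 1.03 had an exact 95% interval of 0.854 to 1.23. Rara-201 and Rara-203 carried most of its transcripts in each library, 40.0% and 56.3% in WT replicate 1 and 33.2% and 41.7% in KK replicate 2.

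Rarg (chromosome 15, 102234938 to 102257517, minus strand), the receptor known from spermatogonia, stood at 1.18 and 1.66 TPM in WT and 1.79 and 1.07 TPM in KK, again with overlap. The log2 fold change of Rarg was 0.13 ± 0.30 (SE; edgeR adjusted p of 0.751). Rarg-202 held all transcripts in both KK libraries, and 42.4% and 83.2% in WT, where Rarg-201 was assigned 19.17 and 2.32 counts. With 37 to 68 Rarg counts a library and this spread within WT, no isoform difference was tested. The third receptor, Rarb, had 0, 6, 4 and 9 counts and was not tested.

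Uptake and transport genes did not pass either. Stra6 (chromosome 9, 58063788 to 58153996, plus strand), the retinol uptake receptor gene, had 25 and 37 counts in WT and 49 and 43 in KK, all on isoform Stra6-202. Both KK libraries were above both WT libraries, but the log2 fold change of 0.49 ± 0.32 (SE) did not pass (edgeR adjusted p of 0.225). The count ratio of Stra6 was 1.40, with an exact 95% counting interval of 1.004 to 1.96. Ccdc33 overlaps Stra6 on the opposite strand with no shared exonic base. It had 654 and 725 counts in WT and 1178 and 970 in KK, and the libraries do not mark strand.

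Rbp4 (chromosome 19, 38116629 to 38125281, minus strand), the retinol carrier gene, gave different answers in counts and in TPM. It had 19 and 22 counts in WT and 24 and 19 in KK, with a log2 fold change of -0.02 ± 0.42 (SE; edgeR adjusted p of 0.981). In TPM it stood at 5.0 and 4.44 in WT and 2.26 and 2.59 in KK, with no overlap. The effective length used for the division was 275 and 338 bases in WT and 674 and 508 bases in KK. Some WT counts (4.19 and 3.37) were assigned to the 410-base isoform Rbp4-203, which held 65.3% and 53.8% of the Rbp4 transcripts in WT and 0% and 8.09% in KK. On log2(TPM + 1) limma called Rbp4 lower in KK (log2 difference of -0.74, adjusted p of 0.0321). Counts with an effective length offset in edgeR gave -0.96 for Rbp4 and did not pass (adjusted p of 0.119).

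Cyp26b1 (chromosome 6, 84571414 to 84593908, minus strand), which encodes the retinoic acid hydroxylase that shields fetal male germ cells from meiosis, was the lowest of the 9. It had 12 and 11 counts in WT and 30 and 17 in KK, or 0.22 and 0.28 TPM against 0.48 and 0.47 TPM. The genotypes did not overlap, but the log2 fold change of 0.93 ± 0.47 (SE) did not pass (edgeR adjusted p of 0.112). It was 0.53 without KK replicate 1 and 1.22 without KK replicate 2. The related Cyp26a1 had 3, 2, 8 and 5 counts and Cyp26c1 had 1 count in all, too few to be tested.

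The wider retinoid pathway was read from a list of 61 other genes, of which 60 were found, 37 could be tested and 6 had no count in any library. Of these 37 genes 11 rose and 7 fell, 18 in all, beside the 43.7% of all genes called. Their median log2 fold change was 0.34. Risers made up 61.1% of the calls, and 81.2% (13 of 16) when libraries were scaled by their totals alone. Fewer passed with length taken into account, both in this list and over all genes tested, where the main fit called 7237 of 16571. In limma on log2(TPM + 1), also a different test, 6 of the list rose and 0 fell, and 3826 genes were called over all. In edgeR with an effective length offset 8 of the list rose and 2 fell, and 4580 genes were called over all. The transport protein gene Ttr and the visual cycle gene Rpe65 were among those without counts.

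The 8 tested genes of uptake, binding and storage gave 4 risers and no faller, beside 22.0% higher and 21.7% lower over all genes tested. Dgat1, an acyltransferase of triglyceride synthesis that can also esterify retinol, rose from 169 ± 4.81 to 213 ± 0.743 CPM (1.26-fold). Cd36, a fatty acid and carotenoid uptake receptor gene, rose from 3.38 to 7.98 CPM. Lrat, the dedicated retinol esterification enzyme, rose from 8.45 to 11.0 CPM. Crabp1, which encodes a cellular retinoic acid binding protein known from spermatogonia, had 14 and 9 counts in WT and 53 and 58 in KK and rose 4.52-fold (edgeR adjusted p of 3.0e-05). Lrat and Crabp1 were chosen after their values were seen.

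Among 15 tested oxidoreductases of retinol and retinal 3 rose and 2 fell, 5 in all, beside 43.7% of all genes called. Rdh11, a retinal reductase gene, fell from 588 ± 16.6 to 527 ± 5.52 CPM (1.12-fold). Adh4 fell from 22.6 to 18.7 CPM (1.20-fold). Rdh10, the retinol dehydrogenase of the embryo, rose from 4.21 ± 1.27 to 8.31 ± 2.05 CPM, and Bco1, the enzyme that cleaves carotene to retinal, rose from 8.56 to 16.9 CPM. Adh5, chosen after its values were seen, rose 1.60-fold. Dhrs3, which reduces retinal back to retinol, did not pass, with 43 and 53 counts in WT and 85 and 59 in KK (edgeR adjusted p of 0.113).

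Of 11 tested nuclear receptors and coregulators 2 rose and 5 fell, beside 22.0% and 21.7% of all genes tested. Rxra, the partner receptor gene, rose from 8.58 ± 0.732 to 17.4 ± 0.418 CPM (2.02-fold), and Ncoa7 rose from 3.94 to 11.0 CPM (2.79-fold). Ncor1, a corepressor gene, fell from 107 to 85.1 CPM and the orphan receptor gene Nr2c2 from 132 to 108 CPM. The other fallers, Ncoa2, Ncoa3 and Nr2c1, chosen after their values were seen, changed by 1.18-fold to 1.23-fold. Rxrb did not pass, at 22.4 CPM in WT and 20.8 CPM in KK (edgeR adjusted p of 0.433). Of the 3 tested genes of retinoic acid synthesis and degradation outside the set, Aldh1a7 and Cyp1b1 rose and Aldh8a1 did not pass. Cyp1b1, a cytochrome P450 gene able to oxidise retinol, rose from 3.27 to 6.53 CPM.

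**Figure D4:**
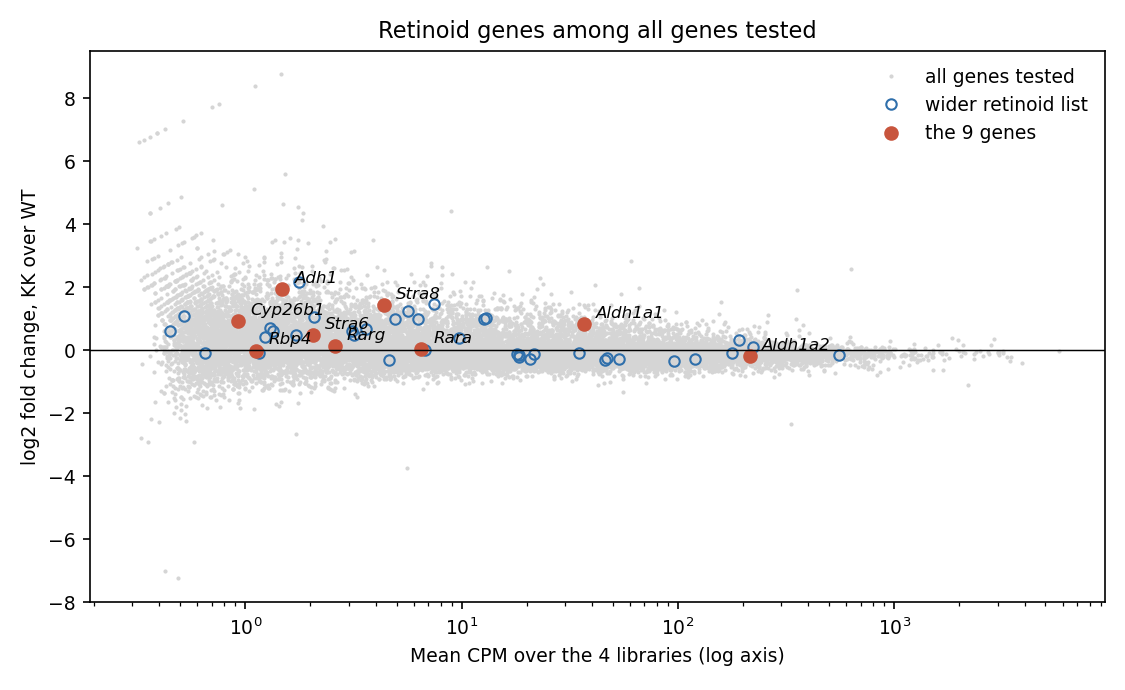
Log2 fold change of KK over WT against mean CPM over the 4 libraries (log axis), with all 16571 genes tested as grey points, the 37 tested genes of the wider list as open blue circles and the 9 genes as labelled red points. Aldh1a2 is the most abundant of the 9 and sits just below 0, and Adh1, Stra8 and Aldh1a1 sit above 0.

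Stra8 acts at meiotic entry, so it was set beside a list of genes of that programme. Of 28 tested genes 9 rose and 9 fell, beside 22.0% and 21.7% of all genes tested, with a median log2 fold change of 0.02. Rec8, the meiotic cohesin gene that retinoic acid induces alongside Stra8, rose from 15.7 ± 0.929 to 31.4 ± 0.385 CPM (2.001-fold). The gene of the STRA8 partner MEIOSIN, listed as Gm4969, had 50 and 46 counts in WT and 98 and 54 in KK and did not pass (log2 fold change of 0.57 ± 0.26 SE, edgeR adjusted p of 0.0807). Dmrt1, a spermatogonial regulator gene that restrains Stra8, rose from 3.30 to 8.70 CPM. Kit, the receptor of differentiating spermatogonia, rose from 5.43 ± 0.032 to 9.48 ± 0.595 CPM, and Dmc1, an early prophase recombinase gene, from 2.98 to 6.61 CPM. Prdm9, which marks recombination sites in leptotene, had 18, 22, 25 and 7 counts and did not pass (edgeR adjusted p of 0.525).

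Among the fallers, Sycp3, a synaptonemal complex gene, went from 191 ± 1.29 to 147 ± 4.27 CPM and Meioc, which encodes a partner of YTHDC2 in sustaining prophase, from 297 ± 7.73 to 216 ± 6.35 CPM. Of the 30 listed genes found in the tables, 28 were tested and the spermatogonial genes Nanos2 and Nanos3 were not, with at most 4 counts a library.

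**Figure D5:**
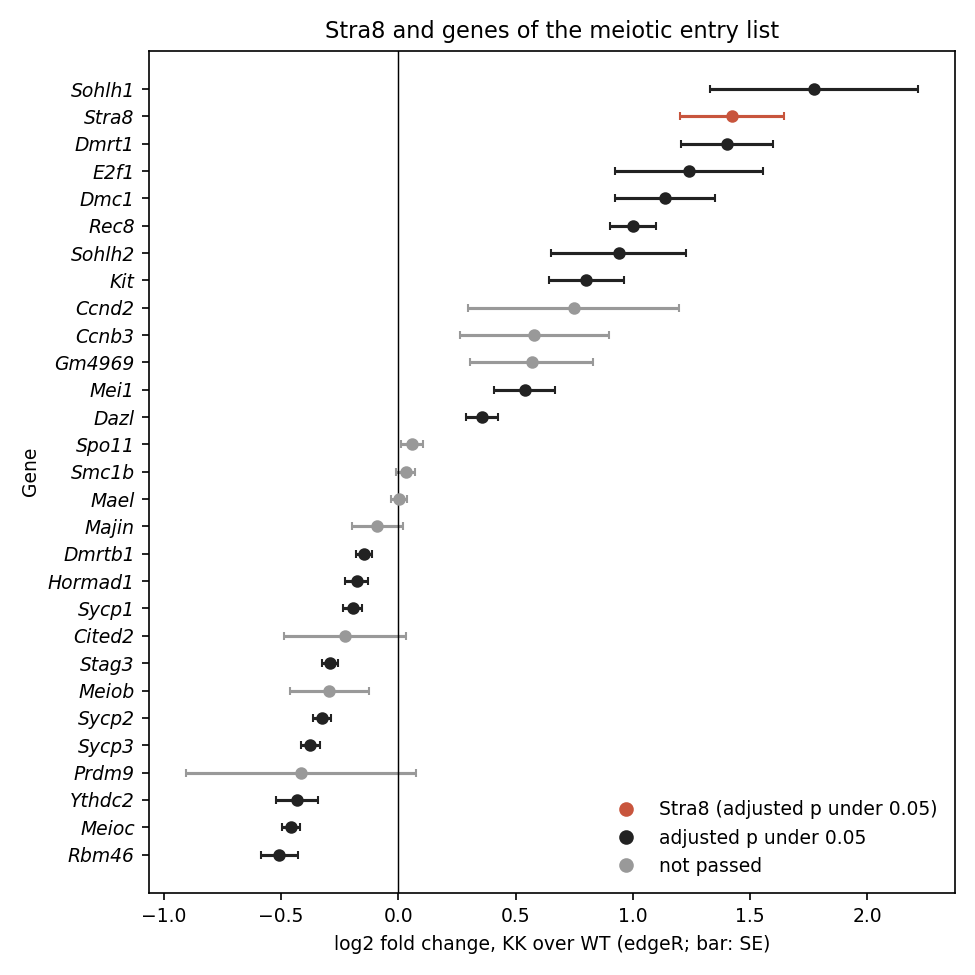
Log2 fold change of KK over WT with SE bars for Stra8 (red) and the 28 tested genes of the meiotic entry list (black where the adjusted p was under 0.05, grey otherwise). Stra8, at 1.42, lies near the top with Sohlh1 and Dmrt1, and Sycp3 and Meioc lie below 0.

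The genes whose pattern over the 4 libraries was most like that of Stra8 were Emd, Mageb4 and Nacad. Likeness was the Euclidean distance of log2 CPM after centring each gene on its own mean, among 11927 genes averaging 1 CPM or more whose symbol is not provisional. The distances were 0.049, 0.074 and 0.091, over only 4 libraries. Emd (X chromosome) stood at 1.59, 2.19, 4.78 and 5.17 CPM in the WT and KK libraries in order, beside 1.99, 2.73, 6.17 and 6.53 CPM for Stra8. Mageb4 lies on the X chromosome too, and Nacad on chromosome 11.

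Genes known to be induced by retinoic acid in other settings formed another list. Of 28 found, 15 were tested, 5 rose and 1 fell (22.0% and 21.7% of all genes tested), with a median log2 fold change of 0.68. Egr1, also an immediate early gene, rose from 10.6 ± 0.209 to 17.0 ± 0.331 CPM, and Bhlhe40, known as a retinoic acid target under the alias Stra13, from 1.27 to 3.09 CPM. Btg2 and Rai2, chosen after their values were seen, rose 1.68-fold and 2.20-fold. Rai14 fell from 601 to 502 CPM. The classic targets Rarb and Cyp26a1 had at most 9 counts a library, and Hoxb1 had none.

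Markers of other testis cells were set beside these genes. Per the labels' protocols a collagenase step for Leydig cells came before the germ cells were freed with trypsin. Of 17 tested Leydig cell markers 14 rose and 0 fell, beside 22.0% higher and 21.7% lower over all genes tested. The summed level of the 18 found was 447 and 459 CPM in WT and 1137 and 1163 CPM in KK. Without Insl3, which had the most counts, the sums were 302 and 305 CPM against 580 and 592 CPM. None of the 18 was without counts. The steroid enzyme genes Cyp17a1 (37.2 to 54.1 CPM) and Hsd3b1 (4.21 to 15.5 CPM) and the hormone gene Insl3 (149 to 564 CPM) rose. The rises of Aldh1a1 (1.77-fold) and Adh1 (3.84-fold), both known from Leydig cells, stand beside those of Cyp17a1 (1.45-fold), Hsd3b1 (3.68-fold) and Insl3 (3.77-fold), and the part of Leydig cell RNA in them was not tested.

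Of 20 tested spermatogonial markers 8 rose and 1 fell, and the summed level of the 27 found was 165 and 171 CPM in WT and 171 and 191 CPM in KK. The 9 called of 20 are close to the 43.7% of all genes called in either direction, of which 22.0% were higher and 21.7% lower. The median log2 fold change of the 20 was 0.79, against 0.003 over all genes tested. Id4, a marker of undifferentiated spermatogonia, was the faller, from 93.4 ± 0.927 to 70.1 ± 3.22 CPM, and without it the sums were 72.7 and 76.5 CPM against 103 and 119 CPM. Uchl1, a spermatogonial marker, rose from 9.98 to 17.2 CPM. Zbtb16, another marker of the undifferentiated state, had 7 and 3 counts in WT and 18 and 38 in KK. Of 16 tested preleptotene to zygotene markers 8 rose and 2 fell, beside 22.0% and 21.7% of all genes tested. The summed level of this list was 659 and 681 CPM in WT and 1571 and 1574 CPM in KK. That difference lay in Tex101, which rose from 181 to 1083 CPM; without it the sums were 478 and 500 CPM against 490 and 489 CPM. The part of earlier germ cells in the rise of Stra8 was not tested.

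Over all genes tested 22.0% were higher and 21.7% lower, the shares to set beside each list of this paragraph. Sertoli cell markers gave 3 risers and 5 fallers of 21 tested, with sums of 252 and 259 CPM in WT and 234 and 244 CPM in KK. Wt1, a defining Sertoli gene, fell from 3.36 to 2.10 CPM, and Sox9 (1.27 CPM in WT, 0.6003 in KK) and Amh (1.13 CPM in WT, 0.962 in KK) did not pass (edgeR adjusted p of 0.0613 and 0.762). The 10 tested markers of peritubular and endothelial cells gave 5 risers and 1 faller, with sums of 89.0 and 88.4 CPM in WT and 65.5 and 69.6 CPM in KK. The faller was Actg2, a smooth muscle actin gene (74.2 to 44.2 CPM), and without it the sums were 14.3 and 14.6 CPM in WT and 23.6 and 23.1 CPM in KK. Acta2 rose from 0.741 to 1.97 CPM. Of 7 tested macrophage and immune markers 3 rose and 0 fell, with sums of 58.8 CPM in both WT libraries and 84.9 and 75.3 CPM in KK. Most of each sum was 1 gene, Aif1, at 53.0 and 52.5 CPM in WT and 76.7 and 65.3 CPM in KK. Csf1r had 1 and 1 counts in WT and 16 and 11 in KK. Round spermatid markers gave 10 risers and 7 fallers of 20 tested, with sums of 6547 and 6585 CPM in WT and 5878 and 5808 CPM in KK. Their median log2 fold change was 0.11. The fallers Smcp (659 to 402 CPM) and Tssk6 (365 to 219 CPM) weigh more in the sums than the risers Tssk1 (107 to 168 CPM) and Spaca3 (23.4 to 48.1 CPM).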

How the data were processed

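RNA sequencing measured pachytene spermatocytes in 2 WT and 2 KK libraries. Per the labels' protocols they were built with the NEBNext Ultra RNA kit, which keeps no strand information. Bowtie, mm10 and GRCm38 are named in the submitters' processing notes, and which program quantified the reads, on which annotation, is not stated there. For each gene and isoform the files deposited by the authors hold, per the file headers, expected counts, TPM, effective lengths and the percent of a gene's transcripts held by each isoform. GENCODE M21 (GRCm38) gave symbols for 55104 of 55364 genes. Total counts lay between 17970207 and 19438570 a library, so genes under about 1 CPM rest on few reads.

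Expected counts were rounded and tested with edgeR 4.0.16 in R 4.3.3 (default filter, TMM factors, quasi-likelihood fit on genotype, Benjamini-Hochberg over all genes tested, threshold 0.05), and the code was tested on simulated data. SE is the log2 fold change over the square root of F. Count ratios have exact 95% intervals. Alternatives used DESeq2 1.42.0, limma 3.58.1 on log2(TPM + 1) or log2(TPM + 0.1), other scalings and filters, an effective length offset, a replicate block and libraries left out. Isoforms were described without a test.

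The 9 genes and the lists were chosen with earlier results of these data known. From each list up to 2 risers and 2 fallers with the smallest adjusted p and a mean of at least 1 CPM were eligible. In the lists of cell markers not all of these are named. Defining cell markers and close paralogues of the 9 genes are named too. The 3 genes most like Stra8 were ranked by distance. Other named genes (Lrat, Crabp1, Adh5, Dhrs3, Nr2c1, Ncoa2, Ncoa3, Rxrb, Aldh8a1, Gm4969, Nanos2, Nanos3, Sohlh1, Btg2, Rai2, Hoxb1, Ttr and Rpe65) were chosen after their values were seen. The listed symbols Meiosin, Bhmg1, Stra13, Plaat3, Pnpla4, Top6bl and Ngn3 were not matched; RefSeq gives Meiosin and Bhmg1 as synonyms of Gm4969. Promoter sequences came from RefSeq (GRCm38.p6), and all 9 genes matched. Some listed genes are not reported here by name.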

Additional observations from a re-analysis of the deposited data

How the results depend on the processing

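Stra8, Aldh1a1, Cyp26b1 and Stra6 kept their direction and their side of the threshold in every alternative that gave a value; Cyp26b1 was not tested at a mean CPM of at least 1. Without an expression filter, limma on log2(TPM + 1) called 1898 genes, 2 of the 9 genes and 4 of the wider list, and lost Aldh1a2 (-0.20, adjusted p of 0.0661) and Adh1 (0.93). With the filter it called 3826 genes and 6 of the wider list, put Rbp4 past the threshold at -0.74 and Rarg at -0.0029 (the same value without the filter). On log2(TPM + 0.1) it called 3758 genes and 6 of the wider list, with Adh1 not past the threshold at 1.46, Rbp4 past it at -0.93 and Rarg at -0.013. With an effective length offset 4580 genes and 10 of the wider list were called. Scaling by library totals put Rbp4 at 0.0674, not past the threshold. Leaving out each library in turn gave ranges of -0.14 to 0.0741 for Rbp4, -0.13 to 0.17 for Rara and -0.31 to 0.44 for Rarg, none called. The cause of these changes was not tested. The replicate numbers are shared by number only: same-numbered libraries deviated with r of -0.058 in each pair, and a replicate block called 7309 genes against 7237 without it and changed no call among the 9 genes. Depth limits Adh1, Rbp4, Cyp26b1 and Stra6, which had 8 to 51 counts a library. It also limits Rarg, with 37 to 68 counts a library, and Stra8 in WT, with 35 and 51.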
